A study of Drosophila melanogaster with 2 samples.

Results

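Insulator and promoter architecture factor genes encode proteins that bind the borders of chromatin domains and the core promoters of housekeeping genes in Drosophila melanogaster. The set holds 10 genes, chosen by name from the Ensembl annotation, of 13945 protein-coding genes on the 6 main chromosome arms: CTCF, su(Hw), BEAF-32, Cp190, mod(mdg4), Chro, pzg, Dref, M1BP and Trl. All 10 names were found. The readout was binding of Max, the bHLHZip protein that pairs with Myc on DNA, mapped by chromatin immunoprecipitation and sequencing (ChIP-seq) with an anti-GFP antibody in embryos that made Max with GFP fused to its C terminus. The embryos were whole, of both sexes and 0 to 24 h old, of strain Max-GFP, and gave 2 biological replicates, numbered 2 and 3, which form the only group. A line that carries the tagged protein is a model of Max binding only as far as the fusion behaves as Max does. Whole embryos also mix all tissues and stages, so a peak gives no cell type.

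Insulator proteins were first known for blocking contact between an enhancer and a promoter when placed between them. In flies, sequence-specific factors such as CTCF, su(Hw) and BEAF-32 bind DNA and recruit cofactors such as Cp190 and mod(mdg4), and many of their sites lie at promoters and at borders of topological domains. Chromator, the product of Chro, and Putzig (also called Z4), the product of pzg, sit at interbands of polytene chromosomes, while Dref, M1BP and GAGA factor, the product of Trl, bind core promoter or promoter-proximal elements of many active genes.

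The authors' peak lists give each peak an interval, a summit and a score, which ranks enrichment over control within a list. The pooled list and each replicate list held 30000 peaks. The list of peaks that passed the threshold on the irreproducible discovery rate (IDR), an estimate from ranked lists of how many calls would not recur, held 4712 peaks. These were the 4712 highest-scoring pooled peaks, and their scores ran from 87.0 to 1561.5 (median 136.4). Scores were compared only within a list, and ranks, with 1 the highest score, were used between lists. A peak is called a start peak where its summit is no more than 500 bp from any transcript start of the gene. No second condition exists in these data, so no test between groups was made and values are given as a description beside the same count over all protein-coding genes. Coordinates are 1-based on dm6.

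Sequences under 5 of the peaks are shown because the first 2 hold the DNA replication-related element (DRE, TATCGATA), which Dref and BEAF-32 both recognise, at the starts of other members, the next 2 lie under high-ranking peaks and hold none of the motifs of these factors, and the last holds the GAGA element. Each runs 5′ to 3′ on the minus strand, the strand of the gene, holds no annotated exon, and was read from the Release 6 genome of RefSeq. Capitals mark motif matches on either strand, apart from single CGATA units. The CTCF stretch, chr3L:7356714-7356807, ends at the base before the CTCF start and holds the DRE and, next to each other, a match to TATAAA and one to the core promoter element Ohler 7 (CATCNCTA). The mod(mdg4) start stretch, chr3R:21377402-21377477, holds a TATAAA and the DRE. The Cp190 stretch, chr3R:15275293-15275443, and the Trl stretch, chr3L:14759431-14759581, are centred on the summits, and only the Trl stretch has a match, to TATAAA. The mod(mdg4) intron stretch, chr3R:21376370-21376520, holds overlapping matches of GAGAG.
CTCF start: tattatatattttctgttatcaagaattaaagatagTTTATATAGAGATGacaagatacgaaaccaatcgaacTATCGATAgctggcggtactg
mod(mdg4) start: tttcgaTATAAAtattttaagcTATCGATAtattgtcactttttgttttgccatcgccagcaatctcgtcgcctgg
Cp190 start: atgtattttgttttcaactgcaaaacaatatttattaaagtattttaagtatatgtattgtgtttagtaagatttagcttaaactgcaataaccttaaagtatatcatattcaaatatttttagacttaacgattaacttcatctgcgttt
Trl intron: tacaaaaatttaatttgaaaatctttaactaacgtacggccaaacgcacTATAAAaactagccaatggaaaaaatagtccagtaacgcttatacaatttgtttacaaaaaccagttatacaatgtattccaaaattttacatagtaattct
mod(mdg4) intron: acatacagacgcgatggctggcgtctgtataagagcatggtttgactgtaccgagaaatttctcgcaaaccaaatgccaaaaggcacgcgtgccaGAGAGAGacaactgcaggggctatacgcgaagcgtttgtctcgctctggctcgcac

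Max-GFP peaks were found at all 10 genes. An IDR summit lay within 500 bp of a start of 9 of them, against 25.9% of all protein-coding genes, and at a start or inside the gene body of all 10, against 29.5%. Only mod(mdg4) had no IDR start peak, and its best start peak fell just below the list. In the whole pooled list all 10 had a start peak, as did 57.2% of protein-coding genes. The 10 genes were longer than most, with a median length of 4173 bp against 2166 bp over all protein-coding genes, and a longer body can hold more summits. The part of length in these counts was not tested. The genes were also chosen with earlier results of these data known, so the shares are a description only.

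Together the genes held 16 IDR summits, 10 of them at starts, and another 28 pooled summits below the IDR list, ranked from 5113 to 29549. The median score of the best IDR start peak was 194.9 over the 9 genes and 155.4 over the 3613 protein-coding genes with one. The highest-ranking peaks were at Chro, at rank 5 of 30000, in an intron of Trl at 21, at Cp190 at 98 and in the body of mod(mdg4) at 240. The other IDR peaks ranked from 830 (pzg) to 4197 (su(Hw)). A peak among the 100 highest of the pooled list lay at a start or in the body of 3 of the 10 genes, against 0.896% of all protein-coding genes.

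**Figure D1:**
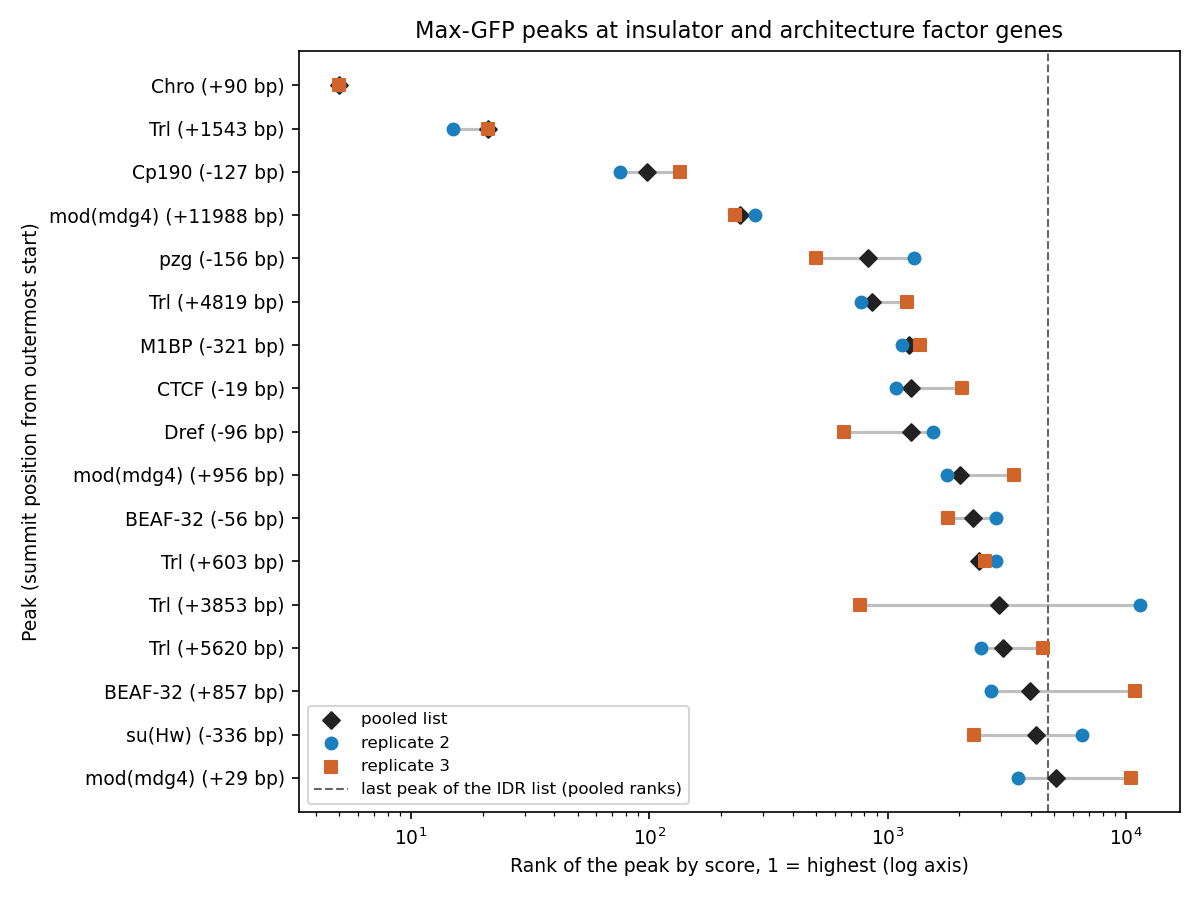
Rank by score (log axis, 1 = highest) of the 16 IDR peaks at the 10 genes and of the start peak of mod(mdg4) in the pooled list (diamonds), replicate 2 (circles) and replicate 3 (squares); grey lines join the replicates and numbers after each name give the summit's distance from the outermost start. Chro ranked 5 in all 3 lists, while a Trl peak ranked 11446 in replicate 2 and 766 in replicate 3.

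Among the DNA-binding insulator proteins, CTCF, the fly counterpart of the vertebrate insulator protein, had 1 IDR peak. CTCF (FBgn0035769; 3L, 7353578 to 7356713, minus strand) carried it from 7356514 to 7356949, with a score of 194.9, rank 1258, and the summit 19 bp upstream of its only start, outside annotated genes. Replicate 2 gave this site a score of 129.8 and rank 1087, and replicate 3 gave 57.3 and rank 2057. No gene other than CTCF had a start within 500 bp of the summit, so the peak is placed at CTCF alone.

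The gene su(Hw), whose product binds the gypsy retrotransposon's insulator, had the lowest-ranked start peak of those in the IDR list. The su(Hw) peak (FBgn0003567; 3R, peak 14308707 to 14309142) had a score of 94.5 and rank 4197. Its rank was 6523 in replicate 2 (score 45.7) and 2304 in replicate 3 (score 53.4), so only replicate 3 placed it among the 4712 highest. The summit lay 336 bp upstream of su(Hw) and 164 bp upstream of the divergent gene Polr2I, a subunit gene of RNA polymerase II. In replicate 3 it lay 233 bp from su(Hw) and 267 bp from Polr2I, so the replicates differ on which start is nearer. In replicate 2 the best start peak of su(Hw) was another one, 330 bp inside the transcript, with a score of 46.6 and rank 6340. A weaker pooled peak in the 5′ UTR of su(Hw), 454 bp inside the transcript, ranked 11069.

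BEAF-32, which encodes the boundary element-associated factor, was the only gene of the set with 2 IDR start peaks. The first BEAF-32 peak (FBgn0015602; 2R, peak 14770195 to 14770630) had a score of 138.6, rank 2290, and its summit 56 bp upstream of the outermost start. The second BEAF-32 peak (2R, 14771108 to 14771543) had a score of 98.3 and rank 3967, with its summit in the 5′ UTR, 25 bp downstream of an internal start. The first site ranked 2845 in replicate 2 and 1799 in replicate 3. At the second, replicate 2 had overlapping peaks of nearly equal score, 79.1 (rank 2725) with its summit 215 bp away and 77.4 (rank 2829) with its summit at 14771325, beside the pooled summit at 14771326. Replicate 3 ranked the second site 10960. Both summits were within 500 bp of starts of asRNA:CR42254, a noncoding antisense gene.

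Of the cofactors, Cp190, a zinc-finger protein with a BTB domain that several DNA-binding insulator proteins recruit, had a high-ranking promoter peak. The Cp190 peak (FBgn0000283; 3R, 15275178 to 15275577) had a score of 559.9 and rank 98. Its score was 361.5 in replicate 2 (rank 75) and 199.4 in replicate 3 (rank 134), and the summits of the replicates were 32 bp apart. The summit lay between divergent starts that are 281 bp apart, 127 bp upstream of Cp190 and 154 bp upstream of CG4338. A second pooled summit in the same interval ranked 8968, and a peak at the internal start of Cp190 ranked 14155.

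The gene mod(mdg4), which encodes a BTB-domain cofactor of su(Hw), differs from the rest in its layout. Its transcripts share 5′ exons and gain their 3′ exons by trans-splicing from separately transcribed units, which the annotation lists as pre-mod(mdg4) genes. Within the 26556 bp of mod(mdg4) (FBgn0002781; 3R, 21350846 to 21377401) the annotation places 23 such genes, 14 on the strand of mod(mdg4) and 9 on the other.

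The strongest mod(mdg4) peak lay in the body of the gene and not at its start. This peak, on 3R from 21365256 to 21365593, had a score of 395.2 and rank 240, and ranked 277 in replicate 2 and 228 in replicate 3. Its summit, 11988 bp from the mod(mdg4) start, was in an intron of mod(mdg4) and in the 5′ UTR of pre-mod(mdg4)-E. The summit was within 500 bp of starts of 10 pre-mod(mdg4) genes, 3 on the minus strand, with a start 123 bp away, and 7 on the plus strand, all 196 bp away. These divergent starts are 319 bp apart, or 121 bp counting the outer start of pre-mod(mdg4)-E. The plus-strand group includes pre-mod(mdg4)-V and pre-mod(mdg4)-X, and the minus-strand group pre-mod(mdg4)-C. The other pooled summits within 500 bp of pre-mod(mdg4) starts were weaker, with ranks from 11934 to 24500.

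The start of mod(mdg4) itself carried a peak that missed the IDR list. This pooled peak, from 21377154 to 21377589, had a score of 82.0, against 87.0 for the lowest IDR peak, and rank 5113. Its summit lay 29 bp inside the transcript. Replicate 2 ranked it 3528 and replicate 3 ranked it 10508. A further IDR peak of mod(mdg4) lay 956 bp inside the gene in an intron, from 21376227 to 21376662, with a score of 149.9 and rank 2008 (1780 in replicate 2 and 3385 in replicate 3).

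**Figure D2:**
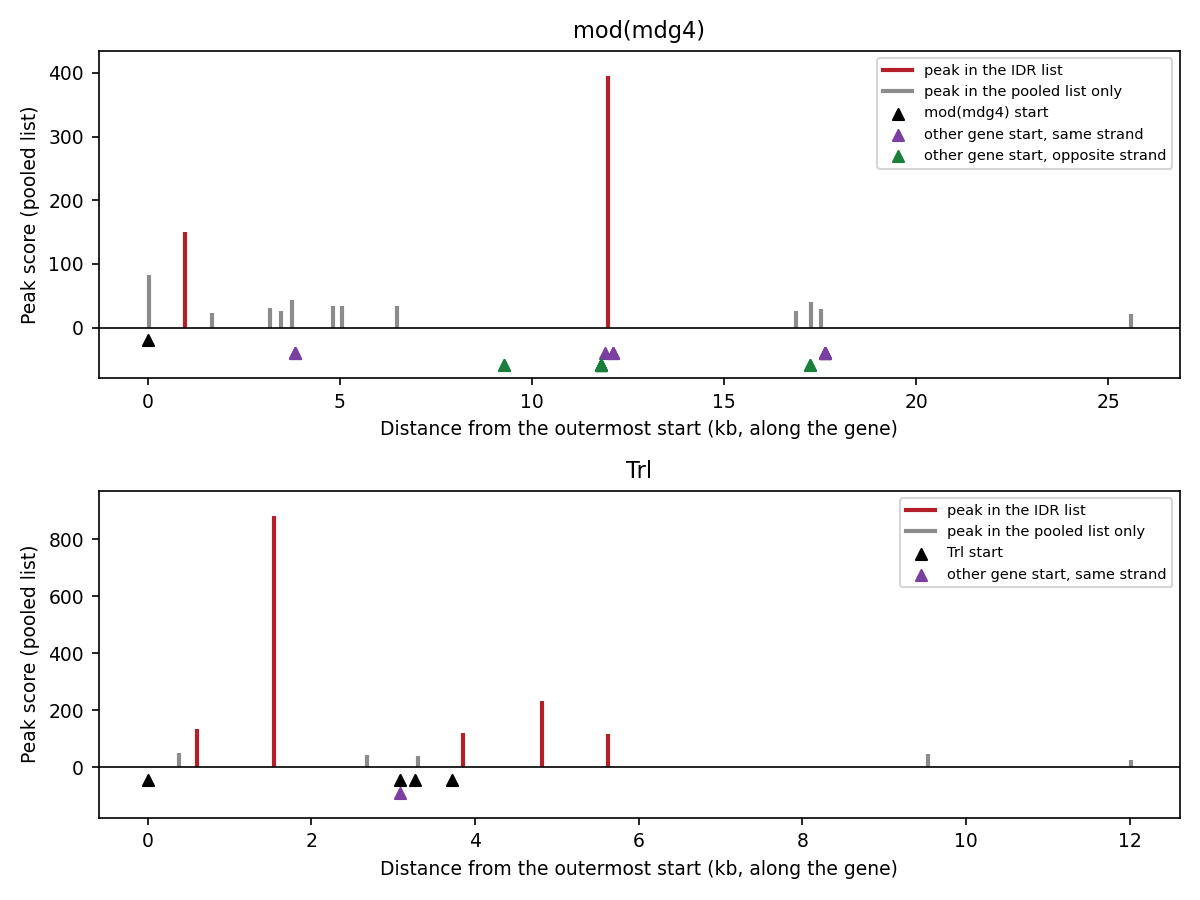
Scores of pooled peaks along mod(mdg4) (upper panel) and Trl (lower panel), by distance in kb from the outermost start; red lines are IDR peaks, grey lines are peaks of the pooled list only, and triangles are transcript starts of the gene and of other protein-coding genes inside it. The highest mod(mdg4) peak, with a score of 395.2, lies between divergent pre-mod(mdg4) starts, and the highest Trl peak, with 882.6, lies between the outermost and the internal starts.

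Chro and pzg, whose products act together at interbands, both had an IDR start peak at a divergent gene pair. Chro (FBgn0044324; 3L, peak 22878702 to 22879132) had a score of 1307.4, and ranked 5 in the pooled list, 5 in replicate 2 (score 723.4) and 5 in replicate 3 (score 573.5). Its summits in the replicates were 2 bp apart, in the 5′ UTR of Chro, 90 bp inside the longest transcript and 126 bp upstream of an internal start. The start of the divergent gene Ssl1, a subunit gene of the general transcription factor TFIIH, was 195 bp away. By this peak, which is also a start peak of Ssl1, Chro ranked 3 among protein-coding genes when only start peaks were counted. It ranked 5 when IDR peaks in gene bodies were counted too.

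The pzg peak (FBgn0259785; 3L, 21285725 to 21286160) had a score of 238.3 and rank 830, with rank 1297 in replicate 2 and 503 in replicate 3. The summit lay 156 bp upstream of pzg but 19 bp inside the transcript of the divergent gene CG12974. Both replicates placed it there, 6 bp apart. A second pooled summit in the 5′ UTR of pzg, 47 bp inside, ranked 11709.

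Of the promoter-binding factors, Dref, which activates genes of replication and growth, had a peak at a promoter it shares with the ribosomal protein gene RpL13. The Dref peak (FBgn0015664; 2L, 9967107 to 9967542) had a score of 194.7 and rank 1259, with rank 1556 in replicate 2 and 657 in replicate 3. The pooled summit was 96 bp upstream of Dref and 5 bp from a start of RpL13. The divergent starts are 101 bp apart, and the replicates placed the summit 232 bp apart, on opposite sides of both starts. It was 116 bp inside RpL13 in replicate 2 and 15 bp inside Dref in replicate 3, so its position is not resolved. A second pooled summit 297 bp upstream of Dref ranked 5577.

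The M1BP gene encodes the zinc-finger protein that binds the core promoter element Ohler 1. Its peak (FBgn0037621; 3R, 8731909 to 8732115) had a score of 197.1 and rank 1229, and ranks of 1154 in replicate 2 and 1371 in replicate 3. The summit was 321 bp upstream of M1BP and 72 bp upstream of CG8202. The highest-scoring replicate 2 peak there had its summit 170 bp from M1BP, and its next peak, with rank 2664, 377 bp away, so the replicates do not fix the summit within the 393 bp between the starts.

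Trl had the most IDR summits of the set, 5 in its 13121 bp (FBgn0013263; 3L, 14747929 to 14761049). As many or more were found in 0.531% of all protein-coding genes and in 4.66% of those at least as long as Trl. The strongest, from 14759320 to 14759740, had a score of 882.6 and rank 21, with rank 15 in replicate 2 (score 528.7) and 21 in replicate 3 (score 361.5). It lay in an intron, 1543 bp downstream of the outermost start. No start of any gene was within 500 bp.

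The other Trl peaks were weaker, with scores from 116.5 to 234.4. A start peak, from 14757100 to 14757216, had its summit in the 5′ UTR of Trl and of the overlapping gene CG42507, 140 bp inside the transcript. It ranked 2939 in the pooled list, 11446 in replicate 2 and 766 in replicate 3, a ratio of 14.9. Of the 4689 IDR peaks matched in both replicates, 0.064% had a larger ratio, and the median ratio was 1.53. In replicate 2 the best start peak of Trl was at another internal start, with rank 6577. The outermost start of Trl had only a pooled peak, of rank 9680. The remaining peaks lay in introns, 603, 4819 and 5620 bp from the outermost start, with ranks of 2432, 863 and 3040.

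Agreement between replicates was described by the ratio of the ranks. Its median was 1.81 over the 16 IDR peaks of the set, against 1.53 over all matched IDR peaks. It was 1.0 for Chro and 1.4 or lower for the Trl peak of rank 21 and the mod(mdg4) peak of rank 240. High rank did not always go with a low ratio. The Cp190 peak of rank 98 had 1.79, while the M1BP peak of rank 1229 had 1.19 and the Trl peak of rank 2432 had 1.11. It exceeded 2.97, the value that 10% of IDR peaks exceed, at the Trl start peak and, with 4.02, at the second BEAF-32 peak. In replicate 2 alone 8 of the 10 genes had a start peak among the 4712 highest, against 26.0% of protein-coding genes, and in replicate 3 alone 9, against 25.0%. The best start peak overlapped the top 4712 of both replicates at 7 genes, against 20.9%. The exceptions were su(Hw), mod(mdg4) and Trl.

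Shared promoters were common in the set, as in the genome. The best IDR start summit was also within 500 bp of a start of another gene for 7 of the 9 genes, against 63.7% of protein-coding genes with an IDR start peak. For 6 the neighbour was protein-coding, against 61.1%, and all 6 were divergent. Divergent neighbours were found for 56.5% of genes with an IDR start peak, so the share in the set is near that of the genome. The pooled summit and those of both replicates were nearer to the neighbour at pzg and nearer to the member at Cp190 and Chro. At su(Hw), Dref and M1BP the pooled summit was nearer to the neighbour, but 1 replicate went the other way. Those were replicate 3 at su(Hw), replicate 3 at Dref, with the summit 15 bp from Dref and 99 bp from RpL13, and replicate 2 at M1BP, with 170 bp to M1BP and 223 bp to CG8202. These 6 peaks cannot be assigned to 1 gene alone. CTCF and Trl had no neighbour, and that of BEAF-32 was noncoding.

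**Figure D3:**
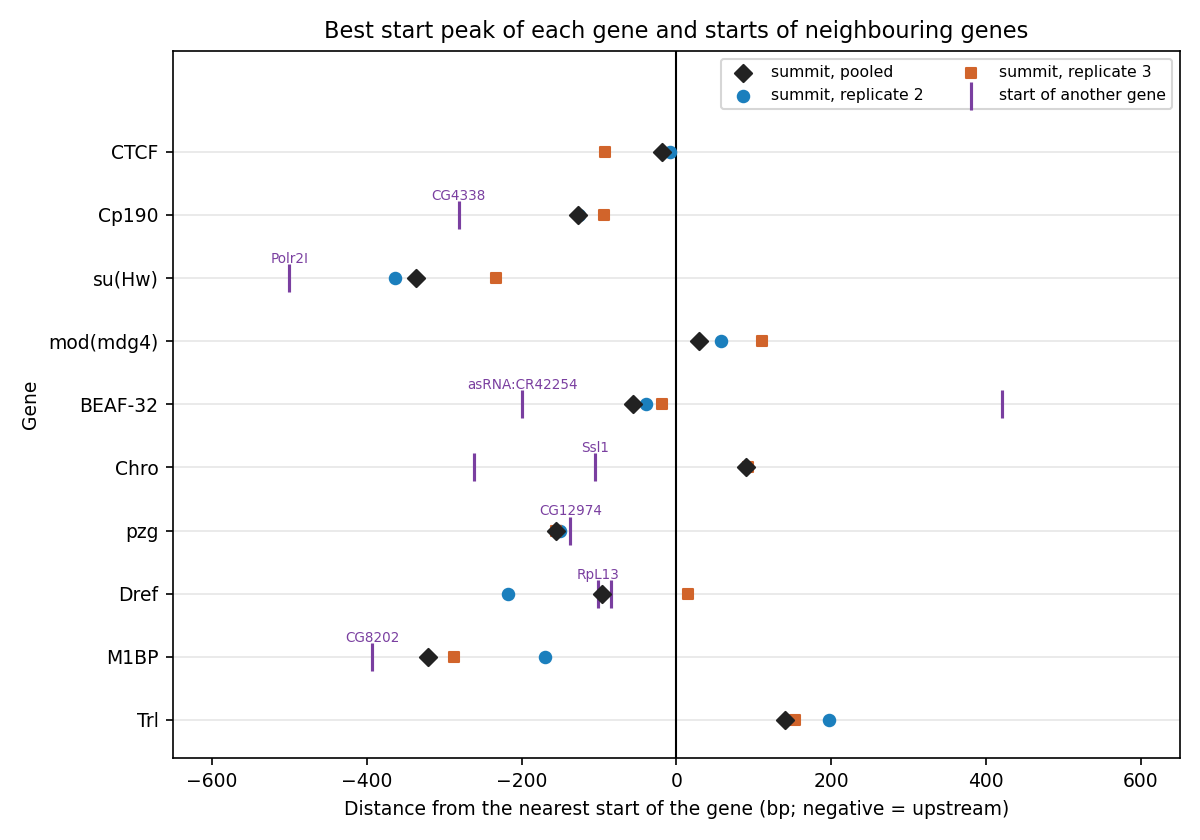
Summit of the best start peak of each gene in the pooled list (diamonds), replicate 2 (circles) and replicate 3 (squares), by distance in bp from the nearest start of the gene (vertical line at 0, negative is upstream); purple ticks are starts of other genes. The pooled summit lies nearer to the neighbour's start at su(Hw), pzg, Dref and M1BP, and of these only pzg keeps that order in both replicates.

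The motifs of the factors themselves were searched on both strands, within 50 bp and within 250 bp of each summit. The DRE lay within 250 bp of an IDR start summit of 3 of the 9 genes with one, CTCF, Cp190 and BEAF-32, and of the start summit of mod(mdg4), which is in the pooled list only. Windows of that length held it at 16.5% of the 2855 IDR summits at protein-coding starts and at 8.48% of windows of that length centred on 19252 protein-coding starts. At CTCF the DRE, from 7356727 to 7356734, covered the summit and ended 14 bp from the start, as in the sequence shown. A DRE within 50 bp was found at 5.57% of IDR start summits. At Cp190 the DRE overlapped the transcript start, 123 bp from the summit, at mod(mdg4) it was 47 bp upstream of the start and 76 bp from the summit, and at BEAF-32 it was 147 bp from the summit.

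The DRE holds overlapping CGATA matches on both strands, so each of these windows also holds at least 2 of the CGATA units that BEAF-32 binds. No DRE was found within 250 bp of the Dref summit. No Ohler 1 match (GGTCACAC) lay within 250 bp of the M1BP summit, where 13.9% of IDR start summits have one. That window did not reach the M1BP start, 321 bp from the summit, so the core promoter of M1BP was not searched. The su(Hw) window held an Ohler 1 match 165 bp from the summit, on the side of Polr2I. It did not reach the su(Hw) start, 336 bp from the summit. No match to the su(Hw) core GCATACTT or to the CTCF core AGGNGGCGC lay within 250 bp of any of the 16 summits. Of IDR start summits 1.75% and 1.61% have one, and of IDR summits elsewhere 3.02% and 2.48%. At shares this low, finding none in 16 windows does not set these genes apart.

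GAGAG, the element that GAGA factor binds, lay within 250 bp of all 5 Trl summits, against 44.3% of IDR summits at starts and 56.0% of those elsewhere. Of the Trl peaks, only that of rank 3040 had it within 50 bp, 26 bp from the summit. The mod(mdg4) intron peak of rank 2008 also had it within 50 bp, 20 bp from the summit. Over the 16 IDR summits of the set, GAGAG lay within 50 bp of 2 and within 250 bp of 7. The shares within 50 bp were 8.37% of IDR summits at starts and 10.9% of those elsewhere. At the Trl peak of rank 21 the match was 175 bp from the summit. At the Trl start peak a run of overlapping matches began 183 bp from the summit. The canonical E-box of Max, CACGTG, lay within 50 bp of none of the 16 summits, against 4.45% of IDR summits at starts and 1.99% of those elsewhere. It lay within 250 bp of 1, that of Dref, 205 bp away, against 13.2% at starts and 7.86% elsewhere. The windows reaching 50 bp to each side of the Cp190 and su(Hw) summits each had a GC content of 19.8%, a value reached or undercut at 4.67% of IDR summits, and the median over the 16 was 35.2%, against 34.7% over IDR summits at starts.

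Of a wider list of 32 genes of related function, 14 had an IDR start peak, against 25.9% of protein-coding genes. Their median score was 128.6, against 155.4 over all protein-coding genes with an IDR start peak. Among the 2356 highest IDR peaks the count was 6, against 15.5% of protein-coding genes. Insulator partners had one at 5 of 6 genes. The highest scores were 297.1 at Cap-H2, a condensin II subunit gene whose peak is shared with MED7, 172.1 at JIL-1, a histone H3 kinase gene, and 144.8 at e(y)2, a SAGA subunit gene whose peak is shared with CG11695. The exception, l(3)mbt, had a pooled start peak of rank 6354.

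Promoter factors and their partners had an IDR start peak at 7 of 10 genes, led by row with a score of 223.0, gfzf, a coactivator gene of M1BP, with 144.0 and woc with 133.5. Of the other genes for DNA-binding insulator proteins 1 of 11 had one, psq, with a score of 142.3 and rank 2194. Of the genes for cohesin and its loader 1 of 5 had one, SMC1, with 114.7. The share over all protein-coding genes is 25.9%, and groups this small are not shown to differ from it. The DNA-binding insulator proteins CTCF, su(Hw) and BEAF-32 had start peaks that most other genes of that role lacked in the IDR list. No test of the difference was made, and the su(Hw) peak is shared with Polr2I and ranked 6523 in replicate 2.

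**Figure D4:**
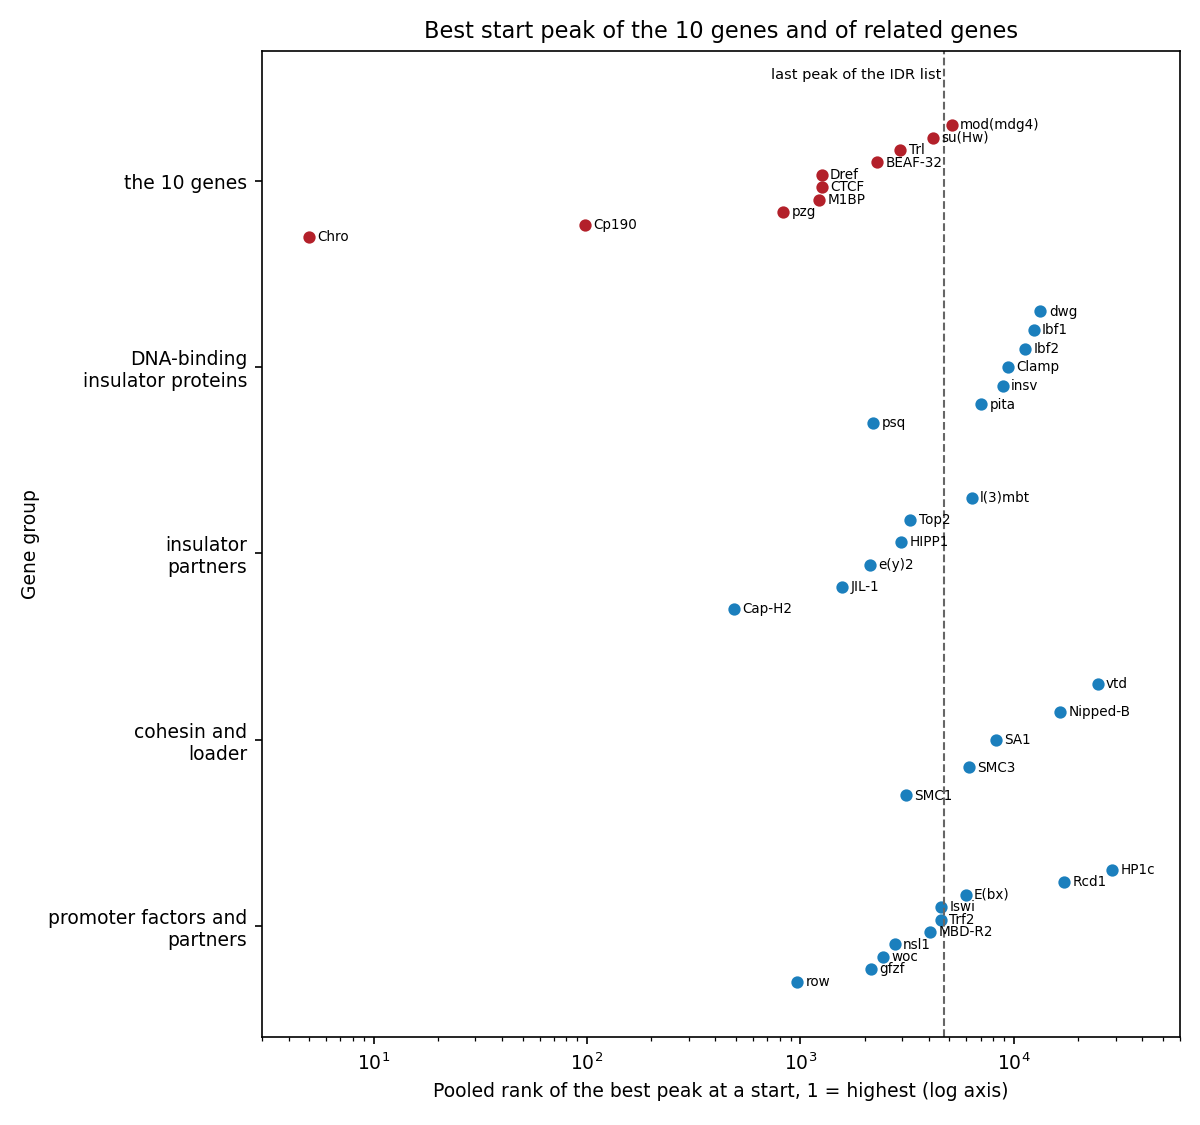
Pooled rank (log axis, 1 = highest) of the best start peak of the 10 genes (red) and of the wider list by role (blue); the dashed line marks the last peak of the IDR list, at rank 4712. ZIPIC, Elba1, Elba2 and Elba3 had no pooled start peak and are not plotted, and mod(mdg4) is the only one of the 10 genes past the line.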

How the data were processed

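Max-GFP ChIP-seq peak lists of 2 biological replicates, of the pooled replicates and of the IDR threshold were used as deposited, on dm6. The score of each peak is the authors' own and is on a scale particular to its list. The deposited −log10 q-value was not used to rank peaks. The summit offset in bp, as deposited, gave each summit position. Per the text deposited with each replicate, the lists were made from replicate and control alignments. The aligner and peak caller were not stated in those texts or the labels. The control and the dm3 lists were not analysed here. No read counts were used, so depth is unknown and no interval is given.

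Starts were taken from Ensembl release 115, leaving out transposable elements, and sequences from the RefSeq Release 6 genome. Peaks were joined to starts (500 bp) and between replicates (overlap of 1 bp or more) with Python 3.11.15, numpy 2.4.6 and pandas 2.3.3, and the code was tested on simulated data. All 10 genes are named, with each gene that has a start within 500 bp of the best start summit and, in each role of the wider list, up to 3 with the highest IDR scores and a sole member without one. SA was matched as SA1 by its RefSeq synonym. The genes and lists were chosen with earlier results of these data known. Alternatives changed the window, the starts, the IDR threshold, the overlap and the replicates used.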

Additional observations from a re-analysis of the deposited data

How the results depend on the processing

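Over all alternatives run, the counts for the 10 genes stayed within 1.5 times of those reported. The 9 genes with an IDR start peak became 7 with a 250 bp window, 10 with 1000 bp, 8 with the outermost start only and 7 when only the 2356 highest IDR peaks were kept. Without replicate 2 there were 9 and without replicate 3 there were 8. For a start or body peak the counts were 10 and 9, and for a pooled start peak 10 and 10. The median rank of the best start peak, 1258.5, was 1068.5 without replicate 2 and 1426.5 without replicate 3. In the wider list the 14 genes became 6 with the 2356 highest IDR peaks, a list that holds fewer peaks by construction (15.5% of protein-coding genes, against 25.9%), and 10 and 15 without replicate 2 and 3. Of 48 alternative ranks for single genes, 11 differed from the reported rank by over 1.5 times, most where 1 replicate was left out. Without replicate 2 the ranks were 2057 for CTCF, 2304 for su(Hw), 10508 for mod(mdg4), 503 for pzg, 657 for Dref and 766 for Trl. Without replicate 3 they were 6340 for su(Hw), 1297 for pzg and 6577 for Trl. The rank of mod(mdg4) was 2008 with a 1000 bp window, which takes in its intron peak, and that of Trl 9680 with its outermost start only. Of the 11, 3 also moved by at least the SD between the replicates' ranks, those of CTCF and mod(mdg4) without replicate 2 and of Trl with its outermost start. That SD comes from the same 2 ranks that leaving out a replicate gives. It is large where the replicates differ, so a rank that moved by less is not shown to be stable. With a 250 bp window su(Hw) and M1BP had no start peak. No paired analysis was possible because there is 1 group and the results come from no test. With 2 replicates and unknown depth, a missing peak is not shown to be absent.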
